A study of Mus musculus with 29 samples.

Results

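RNA of midbrain-patterned neural precursors lacking estrogen receptor β (BERKO) was set against that of wild-type (WT) precursors of the same stage, called mDPC in the labels. The comparison took every array labelled as mDPC of either genotype without LY3201, which gave 2 BERKO and 2 WT arrays of 29 in the series, and it was read across 22063 genes. Both groups came from mouse embryonic stem cells, BERKO or WT, that were induced to neural precursors and then held in feeder-free medium with N2, FGFb, FGF8b, Shh and ascorbic acid. Both received DMSO vehicle for 4 days, and each array carried 150 ng of total RNA. Further arrays served for comparison: mDPC given the ERβ agonist LY3201 at 0.5 nM for 4 days (2 BERKO, 2 WT), neural precursors in FGFb and laminin before patterning (NPC, 2 BERKO, 2 WT), and cells labelled as mature midbrain neurons in N2 and ascorbic acid (MN, 3 BERKO, 2 WT). The study's design calls the arrays of a group biological replicates. The sex, strain and number of clones of the lines, and the part of Esr2 that was removed, are not given in the sources used here, so that genotype and line cannot be told apart.

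Estrogen receptor β, encoded by Esr2, is a nuclear receptor that binds estradiol and then regulates transcription at estrogen response elements or through other bound factors. In the developing ventral midbrain, FGF8 and Sonic hedgehog from organising centres pattern precursors that express Otx2, En1, Lmx1a and Foxa2 and give rise to dopaminergic neurons. Neural precursors held in culture with FGF can also turn to glial fates, marked by Gfap, S100b and Aldh1l1 in astrocytes and by Olig2, Sox10 and Gpr17 in the oligodendrocyte lineage.

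All levels are the authors' log2 signals, and each change is the BERKO mean minus the WT mean on that scale, with its standard error (SE) from limma and a p adjusted by Benjamini-Hochberg over all genes tested. A gene is said to have risen, fallen or passed when its adjusted p was under 0.05. Negative control probes give a guide to background: their 95th percentile was 7.17 and 7.18 in BERKO arrays and 7.2 and 7.34 in WT arrays. Where 1 of 2 levels lies under it, that level is not clearly told from background and the change is better read as a lower limit. The signal space transformation in the authors' processing widens the scale, so a difference of 1 is not exactly a doubling.

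The targeted gene did not behave as its label says. Esr2 read 4.09 and 4.17 in BERKO mDPC, against 3.27 and 3.33 in WT mDPC, a rise of 0.83 ± 0.13 (adjusted p = 8.17e-05). Both BERKO arrays lay above both WT arrays, and all 4 readings were under the control percentile. The probes of this gene may lie outside the removed part, so that they do not check the knockout, and every direction below is that of the labels. Esr1, which encodes estrogen receptor α, read 3.42 and 3.34 in BERKO and 3.38 and 3.59 in WT mDPC (-0.10 ± 0.09, adjusted p = 0.557).

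The stage name was not borne out by the markers. None of 11 midbrain precursor markers (among them En1, Otx2, Lmx1a, Foxa2, Shh and Wnt1) and none of 6 dopaminergic markers (among them Th, Pitx3 and Slc6a3) exceeded the negative control percentile in either genotype. Otx2 read 4.19 and 4.30 in BERKO and 4.27 and 4.38 in WT arrays, and Foxa2, the floor plate factor, read 4.34 and 4.26 in BERKO and 4.49 and 4.38 in WT arrays. By contrast, 7 of 8 astrocyte markers, 4 of 8 precursor markers, 3 of 8 neuron markers (Map2, Tubb3 and Dcx) and 3 of 5 measured oligodendrocyte-lineage markers were above it. The precursor lipid carrier Fabp7 stood far above it, at 19.24 and 19.30 in BERKO and 19.26 and 19.16 in WT arrays. None of the markers of microglia, endothelium, mesenchyme, smooth muscle, neural crest, ependyma, pluripotent cells or endoderm was above the percentile. The cells are therefore called mDPC after their label only.

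In all, 3051 of 22063 genes (13.8%) passed between BERKO and WT mDPC. Of these, 1877 were higher (8.51%) and 1174 lower (5.32%) in BERKO cells. The majority of rises, 61.5% of calls, depended on scaling: after quantile normalization of the deposited values 1445 genes were higher and 1709 lower (45.8% higher). At least 2-fold on the log2 scale were 338 rises (1.53%) and 250 falls (1.13%), and 294 each after quantile normalization. The 2 groups did not overlap for any of the 3051 genes, against 55.1% of all genes tested without overlap. Without BERKO array 1 the total was 1852. Among the 7692 genes whose higher mean exceeded the control percentile, 23.3% passed.

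The 4 arrays given LY3201 share no sample with the 4 vehicle arrays and gave an overlapping set of differences. There 3383 genes passed between BERKO and WT (15.3%), 1595 of them higher (7.23%) and 1788 lower (8.1%) in BERKO cells, and after quantile normalization 1751 were higher and 1578 lower. Of these, 2087 passed in the same direction in vehicle arrays, which is 68.4% of the vehicle calls and 61.7% of the LY3201 calls. Only 7 genes passed in opposite directions. Of the 588 vehicle changes of at least 2-fold, 583 had the same sign with LY3201 and 565 also passed there in that direction. Across all genes the 2 sets of changes correlated with r = 0.777, given as a description since genes are not independent. No gene passed limma's test of the difference between the changes without and with LY3201 (smallest adjusted p = 0.0985, and 1845 genes or 8.36% at an unadjusted p under 0.05). After quantile normalization 3 genes passed it, and 8 did without WT array 1. In a principal component analysis of the 8 mDPC arrays, the first component, with 60.8% of the variance, held the 4 BERKO arrays on one side and the 4 WT arrays on the other.

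**Figure D1:**
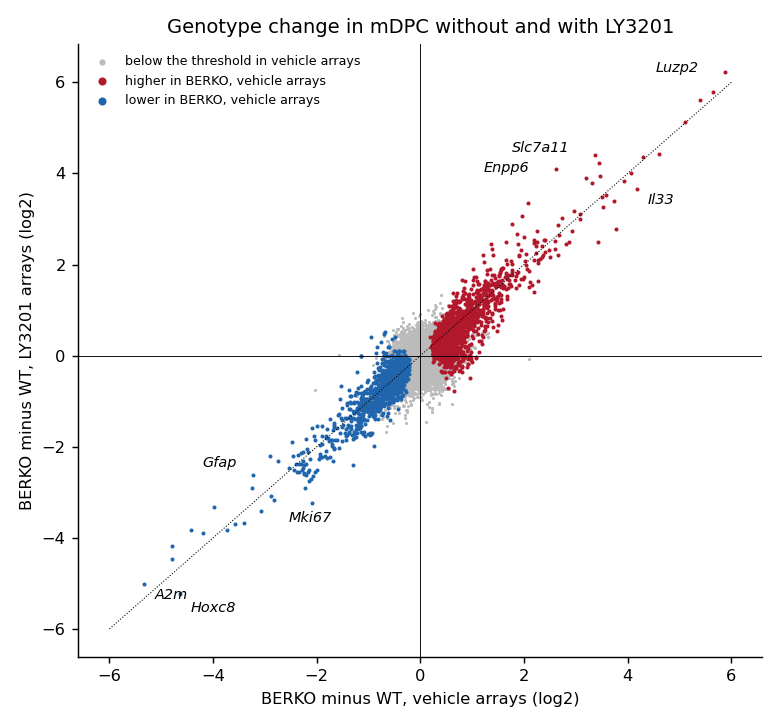
Change between BERKO and WT mDPC (log2) of each gene in vehicle arrays (x axis, 2 against 2) and in LY3201 arrays (y axis, 2 against 2), with a dotted line of equal change. Red points rose and blue points fell in vehicle arrays, and 583 of the 588 that changed at least 2-fold lie in the quadrant of equal sign.

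The largest rises brought receptor subunits, a connexin and metabolic genes. Luzp2, a leucine zipper protein gene, read 16.67 and 16.68 in BERKO arrays, against 10.49 and 11.11 in WT arrays (5.87 ± 0.17, adjusted p = 1.1e-14). Gabra4, the α4 subunit of the GABA-A receptor, read 12.43 and 12.56 in BERKO and 6.67 and 7.02 in WT arrays (5.65 ± 0.22, adjusted p = 8.65e-13). Gabrb1, the β1 subunit, read 11.54 and 11.73 in BERKO and 6.36 and 6.10 in WT arrays (5.40 ± 0.15, adjusted p = 1.03e-14). For both subunits the BERKO arrays were far above the negative controls and the WT arrays were at background. The melanoma antigen family gene Mageb16 read 11.95 and 11.83 in BERKO and 6.62 and 6.94 in WT arrays (5.11 ± 0.17, adjusted p = 1.74e-13). Its copy Mageb16-ps1 rose by 3.78 ± 0.27, and reads of such near copies may be shared on an array. Cyp2j6, a cytochrome P450 of fatty acid epoxidation, read 11.56 and 11.33 in BERKO and 6.80 and 6.87 in WT arrays (4.61 ± 0.12, adjusted p = 1.03e-14). Again only the BERKO arrays stood above background.

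Gjc3, the connexin 29 of myelinating glia, was bright in both genotypes, at 16.20 and 16.14 in BERKO and 11.60 and 12.15 in WT arrays (4.30 ± 0.21, adjusted p = 2.55e-11). Il33, a nuclear alarmin cytokine made by glia in the brain, read 12.44 and 12.29 in BERKO and 8.28 and 8.12 in WT arrays (4.17 ± 0.15, adjusted p = 5.26e-13). Pdk4, the kinase that shuts off pyruvate dehydrogenase, read 11.60 and 11.38 in BERKO and 7.41 and 7.71 in WT arrays (3.93 ± 0.18, adjusted p = 2.04e-11). In all 3 the groups were several units apart while arrays of a group differed by less than 0.6. Gria4, an AMPA receptor subunit, rose by 4.06 ± 0.13 and Grm3, a metabotropic glutamate receptor, by 3.53 ± 0.18. Eya1, a transcriptional coactivator and phosphatase, rose by 3.74 ± 0.12, and Cdr1 by 3.59 ± 0.25. Pdgfd, a ligand of the PDGF β receptor, rose by 3.50 ± 0.17, and the caveola protein gene Cav2 by 3.47 ± 0.16.

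Among the largest falls were a protease inhibitor, a precursor membrane protein, matrix genes and posterior Hox genes. A2m, the secreted protease trap α2-macroglobulin, read 5.59 and 5.38 in BERKO arrays, against 10.71 and 10.95 in WT arrays (-5.34 ± 0.14, adjusted p = 1.03e-14). Prom1, which encodes the precursor surface protein CD133, read 7.25 and 7.19 in BERKO and 12.01 and 12.01 in WT arrays (-4.79 ± 0.13, adjusted p = 1.03e-14). Hoxc8, a thoracic segment identity gene, read 4.11 and 4.08 in BERKO and 9.01 and 8.46 in WT arrays (-4.64 ± 0.25, adjusted p = 1.5e-10). All 3 were well above the control percentile in WT cells, while in BERKO cells A2m and Hoxc8 lay under it and Prom1 lay at it. Pi15, a secreted protease inhibitor of the CAP family, fell by 4.42 (SE 0.25), and Bgn, the matrix proteoglycan biglycan, fell by 4.20 (SE 0.15). Reln, the secreted guide of neuronal layering, read 7.50 and 8.05 in BERKO and 11.96 and 11.57 in WT arrays (-3.99 ± 0.24, adjusted p = 7.31e-10). Mfap4, a microfibril protein gene, fell by 3.73 (SE 0.15). The Ras exchange factor gene Rasgrp3 fell by 3.57 (SE 0.10). Cxcr4, the receptor of the chemokine CXCL12, read 8.17 and 7.99 in BERKO and 11.50 and 11.47 in WT arrays (-3.40 ± 0.17, adjusted p = 4.59e-11). Vat1l fell by 3.25 (SE 0.32), and Speer8-ps1, of a family of many near copies that an array may not separate, fell by 4.79 (SE 0.18).

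**Figure D2:**
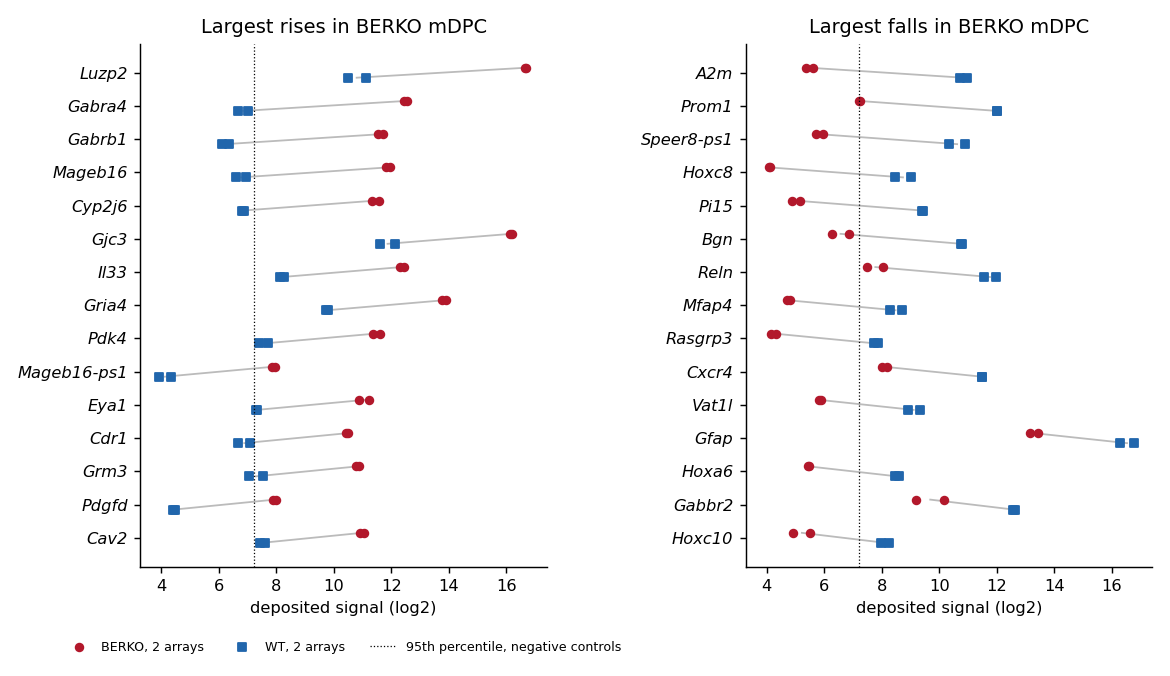
Deposited log2 signal of the 15 largest rises (left) and 15 largest falls (right) between genotypes, with 2 BERKO arrays (circles, upper) and 2 WT arrays (squares, lower) a gene; the grey line joins the means and the dotted line is the mean 95th percentile of the negative controls. The genotypes do not overlap for any of the 30 genes, which was a condition of their choice. For most of them the lower genotype lies near or under the dotted line.

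Each of 50 gene lists was described by its members that passed, set beside the shares of all tested genes (8.51% higher, 5.32% lower). Of the 7692 genes above the control percentile 1208 rose and 584 fell, so those shares are low for lists of bright genes. Oligodendrocyte-lineage genes were among the lists with most rises: 12 of 21 rose, none fell, and the median change was 0.71 (11 and none after quantile normalization, and 7 rises without BERKO array 1). Olig2, the lineage's bHLH factor, read 15.03 and 14.79 in BERKO and 12.63 and 12.65 in WT arrays (2.27 ± 0.18, adjusted p = 2.97e-08). Enpp6, a choline phosphodiesterase of newly forming oligodendrocytes, read 7.34 and 7.31 in BERKO and 4.51 and 4.90 in WT arrays (2.62 ± 0.41, adjusted p = 0.000118). Its BERKO level was just above the control percentile. Only 8 of the 21 genes had a higher mean above that percentile, and Sox10 and Mbp were below it. Lhfpl3, enriched in oligodendrocyte precursors, rose by 1.46 ± 0.12. The receptor Gpr17 of committed precursors read 14.36 and 14.36 in BERKO and 12.81 and 13.46 in WT arrays (1.23 ± 0.30, adjusted p = 0.00766), and the factor Sox8 rose by 0.71 ± 0.19. The calls of Gpr17 and Sox8 were lost without some single arrays, and that of Sox8 also after quantile normalization. Olig1, the neighbouring bHLH gene, read 13.27 and 13.33 in BERKO and 13.28 and 13.18 in WT arrays (0.07 ± 0.40, adjusted p = 0.948). The summed log2 level of 5 defining markers of the lineage ran from 53.77 to 54.53 in BERKO and from 47.76 to 48.30 in WT arrays. In such bulk RNA, more cells of a type and more RNA per cell cannot be told apart, and the part of cell makeup in the other results was not tested.

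Astrocyte genes moved both ways, 7 of 24 higher and 5 lower, with a median change of 0.08 (6 and 7 after quantile normalization). Gfap, the intermediate filament of astrocytes, read 13.43 and 13.17 in BERKO and 16.29 and 16.77 in WT arrays (-3.23 ± 0.22, adjusted p = 2.51e-09). S100b, a calcium-binding protein gene, read 12.34 and 11.80 in BERKO and 10.04 and 9.72 in WT arrays (2.19 ± 0.26, adjusted p = 5.91e-06). These 2 markers of 1 cell type thus differed in opposite directions. Aldh1l1, the folate enzyme used as a pan-astrocyte marker, rose by 1.54 ± 0.09, and Fgfr3 by 1.22 ± 0.11. Thrsp, a lipogenic regulator, fell by 2.38 (SE 0.29), and Cbs, the transsulfuration enzyme, fell by 2.03 (SE 0.10). The glutamate transporters Slc1a2 (0.17 ± 0.13, adjusted p = 0.467) and Slc1a3 (-0.00 ± 0.12, adjusted p = 0.994) and the factor Sox9 (0.26 ± 0.12, adjusted p = 0.207) did not pass. Summed over 8 astrocyte markers, the log2 levels ran from 88.37 to 88.49 in BERKO and from 86.81 to 86.88 in WT arrays.

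Precursor and early neuronal genes mostly fell where they passed. Of 19 radial glia and precursor genes 2 rose and 5 fell. Nes, the intermediate filament nestin, read 7.86 and 7.96 in BERKO and 9.36 and 9.20 in WT arrays (-1.37 ± 0.22, adjusted p = 0.00015), while Fabp7 did not pass (0.06 ± 0.15, adjusted p = 0.854). Sox2 fell by 0.38 (SE 0.12) and Vim rose by 0.40 ± 0.12, and both calls were lost under several alternatives. Of 16 proneural and neuroblast genes 1 rose and 6 fell, led by Dcx, the microtubule protein of migrating neuroblasts, at 9.40 and 9.58 in BERKO and 11.44 and 11.19 in WT arrays (-1.83 ± 0.28, adjusted p = 0.000121). Of 22 pan-neuronal genes 3 rose and 3 fell, 16 had a negative change and the median was -0.14 (6 falls after quantile normalization and with only the compared groups fitted). Uchl1, a ubiquitin hydrolase, rose by 1.20 ± 0.12. The other rises were Camk2b and Mapt, and the call of Mapt was lost without some single arrays. Syn2, the synaptic vesicle protein synapsin 2, fell by 0.49 (SE 0.13), a call also lost without some single arrays. The others that fell, chosen after their values were seen, were Rbfox3 (-1.07 ± 0.13) and Elavl4 (-0.93 ± 0.15), RNA-binding protein genes of neurons that lay under the control percentile. The summed log2 level of 8 neuron markers ran from 55.37 to 55.68 in BERKO and from 60.10 to 60.55 in WT arrays. None of the 10 GABA-neuron and 4 glutamatergic markers tested passed. Of 18 midbrain and dopaminergic genes only Aldh1a1, the retinaldehyde dehydrogenase, passed (0.79 ± 0.21, adjusted p = 0.0137), and its call was lost after quantile normalization.

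Mitosis and DNA replication genes that passed were all lower in BERKO mDPC. Of 15 cyclin D and CDK inhibitor genes 3 rose, Ccnd2 among them, and 3 fell (2 and 1 with only the compared groups fitted). Of 26 mitosis genes 19 fell and none rose, with a median change of -0.82, and of 27 DNA replication genes 12 fell and none rose, with a median of -0.30 (19 and 13 falls after quantile normalization). Mki67, the proliferation antigen, read 5.12 and 5.05 in BERKO and 7.96 and 7.83 in WT arrays (-2.82 ± 0.20, adjusted p = 5.47e-09). Top2a, the topoisomerase of chromosome condensation, read 5.37 and 5.29 in BERKO and 7.56 and 7.59 in WT arrays (-2.24 ± 0.12, adjusted p = 7.89e-11). Kif11, a spindle kinesin, read 5.24 and 5.10 in BERKO and 7.25 and 7.38 in WT arrays (-2.15 ± 0.11, adjusted p = 7.23e-11). These 3 were the only mitosis genes whose WT mean exceeded the control percentile, and by little, so the list as a whole sat near background in both genotypes. For comparison, Mki67 averaged 16.02 in BERKO and 15.01 in WT NPC. Mcm6, a subunit of the replicative helicase, fell by 1.60 (SE 0.14), and Pcna, the sliding clamp, read 10.09 and 10.02 in BERKO and 10.52 and 10.48 in WT arrays (-0.44 ± 0.09, adjusted p = 0.00277). Among inhibitors, Cdkn1a, which encodes p21, rose by 1.57 ± 0.21 and Cdkn1b, which encodes p27, fell by 0.45 (SE 0.10), a call lost without WT array 1, without BERKO array 1 and with only the compared groups fitted.

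At the other stages the mitosis and replication lists had rises. In NPC all 26 mitosis genes were higher in BERKO than WT cells, and in MN 25 were, with medians of 0.91 and 0.99 and none lower. Of all genes tested 10.6% were higher and 5.08% lower in NPC, and 13.5% higher and 7.31% lower in MN. The change in mDPC was lower than that in NPC for 26 of 26 mitosis genes and lower than that in MN for 25 of 26 by the test of the difference, which 4.99% and 7.31% of all genes tested passed in that direction. Replication genes gave 17 rises and 1 fall of 27 in NPC and 15 rises in MN, and 16 and 15 of them passed the difference tests downwards in mDPC. The mDPC and NPC tests, and the mDPC and MN tests, each reuse the 4 mDPC arrays. For Mki67 the change in mDPC minus that in NPC was -3.82 ± 0.28 (adjusted p = 4.19e-08) and minus that in MN was -3.71 ± 0.27 (adjusted p = 2.02e-08).

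**Figure D3:**
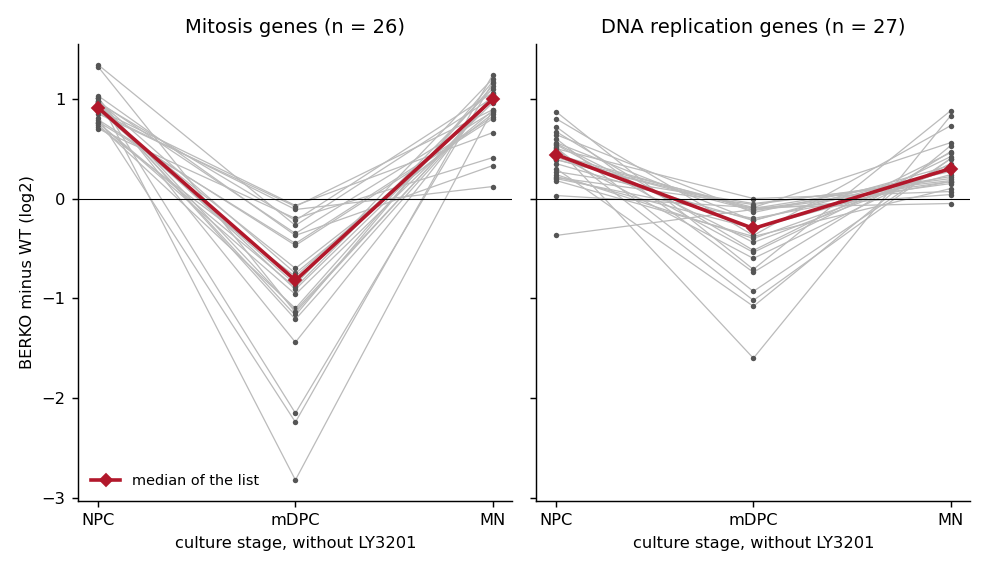
Change between BERKO and WT (log2) of 26 mitosis genes (left) and 27 DNA replication genes (right) at the NPC, mDPC and MN stages, all without LY3201. Thin lines join the values of a gene and red diamonds are list medians, which are 0.91, -0.82 and 0.99 for mitosis.

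Promoters of mitotic genes often hold the cell cycle homology region, an element through which the DREAM complex acts. The letters TTTGAA, searched on both strands from 250 bases before to 50 bases after the RefSeq start (assembly GRCm38.p6), were in 17 of 22 mitosis promoters (77.3%), in 2 of 22 replication promoters (9.09%) and in 15.6% of 13032 promoters of tested genes. Because the mitosis list was made of known mitotic genes, its share does not bear on the falls in mDPC. The letters were in 15.9% of the promoters of all genes that fell. The 3 mitosis genes above background have it, shown here on the gene's own strand with the match in capitals, for Kif11 and Top2a as its reverse complement.
Mki67, chr7:135716459-135716488, minus strand: cgccgttttggTTTGAAtcgggcgggctgc
Top2a, chr11:99024194-99024223, minus strand: ctagataaaggTTCAAAtgaaactagggaa
Kif11, chr19:37376352-37376381, plus strand: cgtctccatttTTCAAAattgaggcgcgga

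Genes of amino acid supply and the integrated stress response, whose effector Atf4 is translated when eIF2α is phosphorylated, had 13 rises and no fall among 21, with a median change of 0.56 (14 and 1 after quantile normalization). Slc7a11, the cystine/glutamate exchanger, read 15.31 and 15.62 in BERKO and 11.91 and 12.27 in WT arrays (3.37 ± 0.22, adjusted p = 2.47e-09). Aldh1l2, the mitochondrial formyltetrahydrofolate dehydrogenase, read 10.71 and 10.46 in BERKO and 7.25 and 7.07 in WT arrays (3.42 ± 0.14, adjusted p = 1.67e-12). Asns, asparagine synthetase, read 10.75 and 10.28 in BERKO and 7.88 and 7.98 in WT arrays (2.59 ± 0.13, adjusted p = 5.92e-11). The BERKO arrays were above the WT arrays for each of these genes. The large amino acid transporter Slc7a5 rose by 1.55 ± 0.15 and its partner Slc3a2 by 1.47 ± 0.12. Vldlr, a lipoprotein receptor, rose by 1.30 ± 0.12. Among 13 unfolded protein response genes, which share part of this signalling, 3 rose, led by Herpud1 (1.06 ± 0.11), or 1 without WT array 2, without BERKO array 1 or with only the compared groups fitted, and the list's median turned from 0.11 to -0.04 after quantile normalization. By the tests of difference, 10 Atf4 genes had a higher change in mDPC than in NPC and 1 a lower one, and 13 had a higher change than in MN, beside 3.68% and 5.15% of all genes tested.

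The Atf4 element TGATGNAA, searched the same way on both strands, was in 7 of 18 promoters of this list (38.9%). It was in 3.37% of all 13032 and in 3.87% of promoters of genes that rose. Because the list was made of Atf4 response genes, its share does not bear on the rises in mDPC. Atf3 and Trib3, which hold a match, did not pass. The promoters of Slc7a11, Asns and Vldlr, 3 of the named genes, and that of Chac1, a glutathione-degrading enzyme of the same list chosen after its values were seen (1.51 ± 0.17), are shown to give the bases around the match. The match is in capitals, as its reverse complement except in Asns.
Slc7a11, chr3:50443642-50443671, minus strand: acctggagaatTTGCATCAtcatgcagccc
Asns, chr6:7693214-7693243, minus strand: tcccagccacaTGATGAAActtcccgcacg
Vldlr, chr19:27216809-27216838, plus strand: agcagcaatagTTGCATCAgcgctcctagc
Chac1, chr2:119351038-119351067, plus strand: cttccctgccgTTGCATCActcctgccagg
The palindromic consensus estrogen response element was in 5 of 13032 promoters, 1 of a gene that rose and none of a gene that fell. None of these matches shows binding.

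Cholesterol synthesis genes rose in 11 of 18 cases and fell in 1, with a median of 0.48 (8 and 1 after quantile normalization, and 7 rises without WT array 2 or without BERKO array 2). Idi1, isopentenyl diphosphate isomerase, read 10.25 and 10.27 in BERKO and 9.14 and 8.79 in WT arrays (1.30 ± 0.13, adjusted p = 4.8e-07). Cyp51, the lanosterol demethylase, rose by 0.85 ± 0.11, Fdft1, squalene synthase, by 0.83 ± 0.11, and Hmgcs1, the entry enzyme, by 0.77 ± 0.12. The member that fell was Ebp (-0.70 ± 0.14), the sterol isomerase, which lies in the X-chromosome block described below. Of the same 18 genes 14 were higher and 1 lower in NPC, and 11 were higher and 1 lower in MN. Of 13 fatty acid genes 3 rose, among them the elongase Elovl6 (0.85 ± 0.12), and 4 fell, among them the desaturase Scd1 (-0.60 ± 0.17), whose call was lost without some single arrays. The falls of this list were 1 without WT array 1 or without BERKO array 1, 2 with only the compared groups fitted, and 6 beside 2 rises after quantile normalization. Of 20 nuclear genes of oxidative phosphorylation 7 rose and none fell, by 0.91 or less. That count was 3 after quantile normalization, 1 without WT array 2, 2 without BERKO array 1 and 1 with only the compared groups fitted. Of 24 glycolysis and hypoxia genes 5 rose, Pfkp and Pgam1 among them, and 2 fell. These counts were 3 and 4 after quantile normalization, and 2 and 1 with only the compared groups fitted. In this list Ldhb, the lactate dehydrogenase subunit of oxidative tissues, read 13.40 and 13.16 in BERKO and 11.93 and 11.77 in WT arrays (1.43 ± 0.12, adjusted p = 4.76e-08). Ldha, the subunit of glycolytic tissues, read 10.21 and 9.74 in BERKO and 10.78 and 10.62 in WT arrays (-0.73 ± 0.18, adjusted p = 0.00751). Both differences were without overlap, the second with its call lost under 3 alternatives.

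Hox genes, which set position along the trunk axis and are normally silent in midbrain, fell in 12 of 21 cases and rose in 2, with a median of -1.19 (12 and 2 after quantile normalization). In NPC 12 of the 21 were lower and none higher (median -0.56), and in MN 13 were lower and 1 higher (median -0.92). Beside Hoxc8, Hoxc10 read 5.52 and 4.92 in BERKO and 8.25 and 7.97 in WT arrays (-2.89 ± 0.20, adjusted p = 4.87e-09), and Hoxa6 read 5.45 and 5.47 in BERKO and 8.59 and 8.47 in WT arrays (-3.07 ± 0.17, adjusted p = 2.06e-10). The WT arrays alone stood above background for both. Hoxa2, the most anterior of them, went the other way, at 9.42 and 9.32 in BERKO and 7.91 and 7.80 in WT arrays (1.52 ± 0.12, adjusted p = 4.02e-08). Neighbours moved together, with falls of at least 1 in Hoxc10, Hoxc9, Hoxc8 and Hoxc6 and in Hoxb8, Hoxb7, Hoxb6 and Hoxb5, although the levels of most were near background. The dorsal and cerebellar factor Zic1 read 9.20 and 8.85 in BERKO and 6.39 and 6.48 in WT arrays (2.59 ± 0.16, adjusted p = 1.16e-09), and Pou3f2 fell by 1.08 (SE 0.11).

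Signalling genes that act on precursors were described by pathway. Of 16 Hedgehog genes 6 fell and 1 rose, which was Nkx2-2, with a median of -0.24. In NPC, before patterning, 7 of the 16 were lower and 3 higher (median -0.27), and in MN 4 were lower and 3 higher. Ptch1, the receptor and target of the Shh given in the medium, read 10.28 and 10.17 in BERKO and 11.90 and 11.88 in WT arrays (-1.66 ± 0.09, adjusted p = 2.06e-10). Of 20 Notch genes 7 fell and none rose. The receptor Notch2 fell by 1.66 (SE 0.18) and Notch1 by 1.02 (SE 0.15), the ligand Jag1 by 1.06 (SE 0.12) and the ligand-like Dner by 1.18 (SE 0.17). Of 33 Wnt genes 2 rose and 4 fell, or 18.2% in either direction beside 13.8% of all genes, with fewer falls when some single arrays were left out. The receptor Fzd9 changed by -1.30 ± 0.22 and Porcn, the acyltransferase of Wnt secretion, by -1.22 ± 0.11. Porcn lies in the X-chromosome block described below, which was lower at every stage. In the BMP and TGF-β list 5 rose and 3 fell of 26. Id2, a target of BMP signals, read 16.52 and 16.29 in BERKO and 14.64 and 14.66 in WT arrays (1.76 ± 0.20, adjusted p = 3.99e-06), and Id1 rose by 1.42 ± 0.25. Their relative Id4 read 10.90 and 11.24 in BERKO and 12.86 and 12.61 in WT arrays (-1.66 ± 0.28, adjusted p = 0.000301). Members of the Id family thus differed in both directions.

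Of 36 axon guidance and migration genes 15 fell and 5 rose, with a median of -0.25 (9 falls without WT array 1). Beside Reln and Cxcr4, Plxna2, a semaphorin receptor, read 8.30 and 8.47 in BERKO and 10.78 and 10.60 in WT arrays (-2.30 ± 0.12, adjusted p = 7.96e-11). Ntn1, the midline attractant netrin 1, read 9.44 and 9.56 in BERKO and 11.90 and 11.56 in WT arrays (-2.24 ± 0.18, adjusted p = 4.53e-08). The ephrin receptors Ephb1 and Epha7 fell by 1.81 (SE 0.14) and 1.34 (SE 0.18), the first by 0.24 in its other transcript cluster. Of 47 collagen and matrix genes 7 rose and 8 fell (4 rises without BERKO array 1, and 5 falls with only the compared groups fitted). Among mesenchyme genes, Bgn fell as given above, while none of the defining markers of that cell type was above background.

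Receptor and channel genes changed in both directions. Of 10 GABA receptor genes 3 rose and 3 fell (5 rises with only the compared groups fitted). Gabra2, Gabra4, Gabrb1 and Gabrg1 lie in 1 cluster on chromosome 5, and there Gabra2 read 8.64 and 8.97 in BERKO and 5.65 and 5.83 in WT arrays (3.07 ± 0.14, adjusted p = 1.89e-11). Gabrg1, the γ1 subunit, instead read 10.90 and 11.12 in BERKO and 11.87 and 11.61 in WT arrays (-0.73 ± 0.13, adjusted p = 0.000477). Thus 3 of 4 neighbours rose and the fourth fell. Gabbr2, a subunit of the metabotropic GABA-B receptor, read 9.19 and 10.18 in BERKO and 12.56 and 12.62 in WT arrays (-2.90 ± 0.31, adjusted p = 1.61e-06).

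Glutamate receptor genes rose in 6 of 16 cases and fell in 2. Beside Gria4 and Grm3, the AMPA subunits Gria2 and Gria3 rose by 1.77 ± 0.23 and 1.30 ± 0.17 and the NMDA subunit Grin3a by 1.76 ± 0.14. Grik2, a kainate subunit, read 7.52 and 7.82 in BERKO and 9.18 and 9.07 in WT arrays (-1.45 ± 0.13, adjusted p = 2.27e-07). Of 23 potassium channel genes 8 rose and 4 fell (5 rises of 14 tested with the filter at percentile 75). Kcnd2, the A-type channel, read 13.90 and 13.82 in BERKO and 11.65 and 11.44 in WT arrays (2.31 ± 0.21, adjusted p = 1.55e-07). Kcnj10, the inward rectifier Kir4.1 of astrocytes, read 10.22 and 10.52 in BERKO and 12.08 and 11.98 in WT arrays (-1.66 ± 0.23, adjusted p = 3.58e-05). The calcium-activated channel gene Kcnn3 rose by 1.70 ± 0.20.

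**Figure D4:**
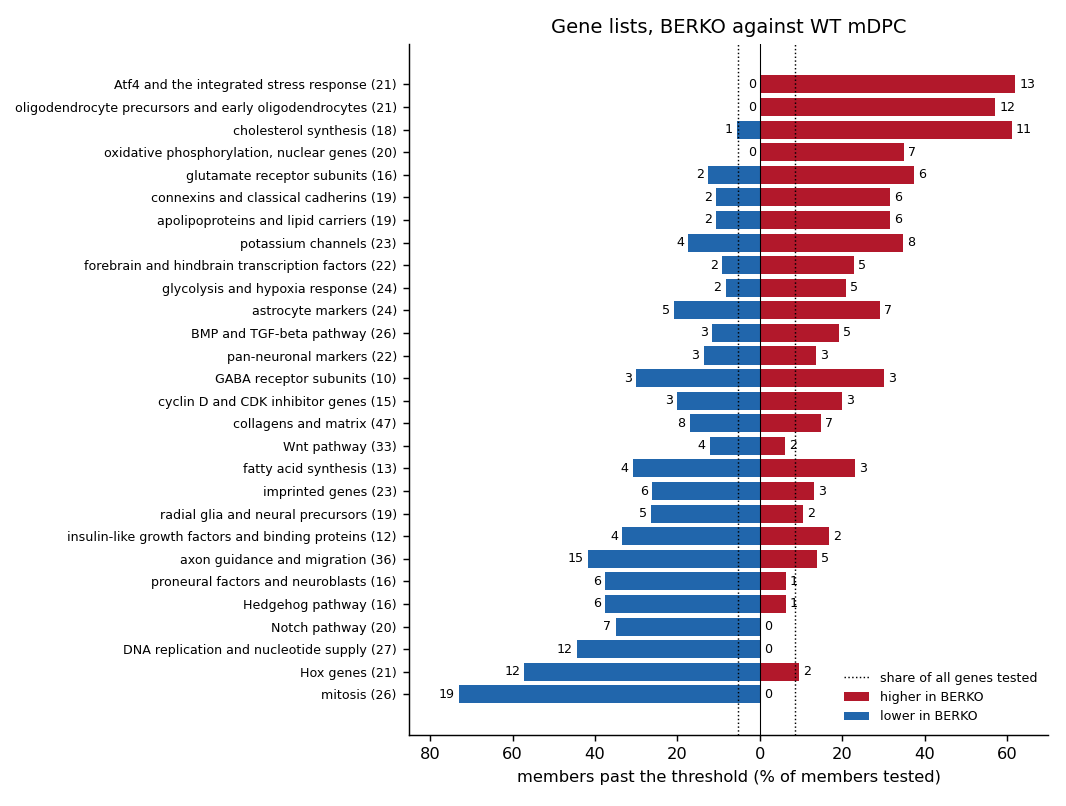
Share of each list's tested members (number in brackets) that passed as higher (red, to the right) or lower (blue, to the left) in BERKO than WT mDPC, with counts at the bar ends, for the lists with at least 6 such members. Dotted lines mark the shares of all genes tested (8.51% and 5.32%), and the mitosis, Hox and replication lists reach furthest left while the Atf4, cholesterol and oligodendrocyte lists reach furthest right.

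Other lists changed in part. In the estrogen list 3 of 17 rose (1 with only the compared groups fitted), Esr2 among them, and 1 fell, which was Igfbp4, an IGF-binding protein gene that responds to estrogen in some tissues, at 6.74 and 6.26 in BERKO and 8.83 and 8.36 in WT arrays (-2.09 ± 0.16, adjusted p = 1.76e-08). Of 23 imprinted genes 3 rose and 6 fell (1 rise of 18 tested with the filter at percentile 75). Nnat, a paternally expressed membrane proteolipid gene, read 15.14 and 15.21 in BERKO and 13.27 and 13.25 in WT arrays (1.91 ± 0.16, adjusted p = 8.62e-08). The paternally expressed neighbours Peg10 and Sgce fell by 2.06 (SE 0.21) and 1.13 (SE 0.09), and Peg3 fell by 1.37 (SE 0.31). Of 11 MHC class I genes 3 rose, led by B2m, the light chain, at 15.74 and 15.32 in BERKO and 14.07 and 14.49 in WT arrays (1.25 ± 0.17, adjusted p = 1.93e-05). Of 24 interferon-stimulated genes 3 rose, with the GTPase gene Gbp7 at 2.37 ± 0.13, and 1 fell, with a median of 0.01. Together these were 16.7% of the list, beside 13.8% of all genes in either direction. The fatty acid receptor gene Cd36 rose by 1.95 ± 0.23, the retinoic acid hydroxylase gene Cyp26b1 by 1.68 ± 0.09 and the immediate early gene Jun by 1.44 ± 0.15.

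One stretch of the X chromosome stood out when genes were put in RefSeq order, a view chosen after the values were seen and given without a test of the stretch. From Clcn5, a chloride/proton exchanger gene, to Ftsj1, a tRNA methyltransferase gene, 22 of 30 tested protein-coding genes were lower in BERKO mDPC and none was higher, with a median change of -0.77. The 14 of them above the control percentile all fell, with changes between -0.78 and -1.72 and a median of -1.15. The rest of the X chromosome gave 74 rises and 41 falls among 526 genes and a median of 0.02. Hdac6, a cytoplasmic deacetylase, read 7.75 and 7.59 in BERKO and 8.79 and 8.79 in WT arrays (-1.12 ± 0.14, adjusted p = 1.3e-05). Pqbp1, a splicing-related protein gene, read 9.71 and 9.59 in BERKO and 10.91 and 10.91 in WT arrays (-1.26 ± 0.13, adjusted p = 6.26e-07). Rbm3, a cold-induced RNA-binding protein gene, read 9.40 and 9.35 in BERKO and 11.12 and 11.07 in WT arrays (-1.72 ± 0.09, adjusted p = 1.21e-10). For each of the 3, both BERKO arrays lay about 1 unit or more under both WT arrays.

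The block was lower at every stage. The same 14 genes all fell in LY3201 mDPC (median -1.33), in NPC (median -0.96) and in MN (median -1.02). In embryonic stem cells, before any differentiation, the BERKO mean was under the WT mean for all 14 (median difference -1.0, not tested here). Copy number and allele were not measured, so their part in this pattern was not tested.

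**Figure D5:**
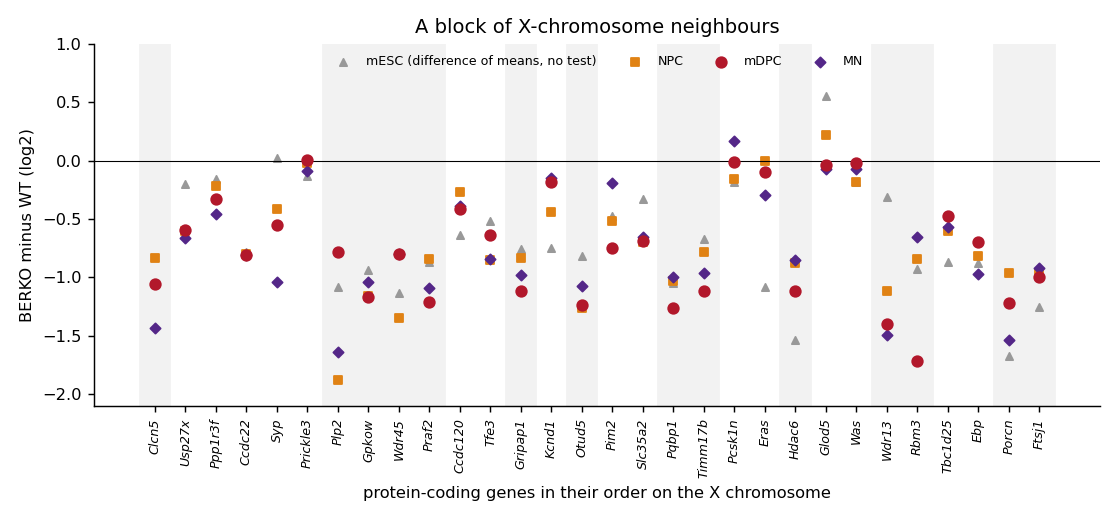
BERKO minus WT (log2) of 30 protein-coding genes in their order on the X chromosome from Clcn5 to Ftsj1, at the mESC, NPC, mDPC and MN stages without LY3201. Shaded columns are the 14 genes above the negative control percentile in mDPC, all under 0 at each stage.

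Some changes in mDPC were shared with the other stages in direction, and others were not. Across all genes the changes in mDPC correlated with those in NPC at r = 0.454 and with those in MN at r = 0.243, again given as a description. In NPC 3454 genes passed between BERKO and WT (15.7%), of which 1053 also passed in mDPC in the same direction, 34.5% of the mDPC and 30.5% of the NPC calls, and 219 in the opposite one. In MN 4584 passed (20.8%), of which 1199 passed likewise in mDPC, 39.3% of the mDPC and 26.2% of the MN calls, and 280 in the opposite one. In all 3 stages 544 genes passed in 1 direction, 366 higher and 178 lower, or 17.8% of the mDPC calls. The test of the difference between effects found 1914 genes between mDPC and NPC (8.68%) and 2749 between mDPC and MN (12.5%). For 539 mDPC calls the change was larger in its own direction than at both other stages by these tests, 221 rises and 318 falls. Of all 22063 genes tested, called in mDPC or not, 839 passed both difference tests. Both tests reuse the mDPC arrays on which the 539 genes were called. Choosing genes by that call favours a larger change in mDPC, so the count of 539 may be inflated.

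Falls that were larger in mDPC than at both other stages included A2m, Prom1, Reln, Mfap4, Rasgrp3 and Gfap. The genes of this paragraph were named for large changes in mDPC, on arrays that the difference tests reuse. That choice favours a larger change in mDPC than elsewhere. Gfap changed by -0.67 in NPC, where it averaged 8.41 in BERKO and 9.08 in WT, and by 0.04 in MN, where it averaged 18.97 in BERKO and 18.93 in WT. Its change in mDPC minus that in NPC was -2.56 ± 0.31 (adjusted p = 1.7e-05), and minus that in MN was -3.28 ± 0.29 (adjusted p = 2.6e-07). Reln changed by -0.84 in NPC and by -0.58 in MN (adjusted p = 0.0754). A2m changed by -0.05 in NPC (adjusted p = 0.862) and fell by 3.22 in MN. Rises that were larger in mDPC than at both others included Luzp2, Gabra4, Gabrb1, Cyp2j6, Il33, Pdk4, Aldh1l2, Asns and Slc7a11. Gabrb1 rose by 1.21 in NPC and 4.68 in MN, and Il33 by 2.61 in NPC and 1.09 in MN. Aldh1l2 rose by 0.50 in NPC and changed by -0.32 in MN (adjusted p = 0.0767). For Mageb16 the changes of 5.11 in mDPC and 4.81 in NPC did not differ by the test (0.30 ± 0.25, adjusted p = 0.587), and for Olig2 those of 2.27 in mDPC and 2.13 in NPC did not (0.13 ± 0.26, adjusted p = 0.858).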

How the data were processed

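RNA was measured on Affymetrix Clariom D arrays (MTA 1.0), 1 per sample. The log2 values deposited by the authors come from Affymetrix Expression Console 1.4 by way of SST-RMA, per the labels' protocols; RMA and the Transcriptome Analysis Console are named in the submitters' processing notes without versions. The genome build of the array's clusters is not given in the sources used here. The log2 values were used as deposited, and the number of arrays limits the precision.

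Of 72688 entries, 65956 were transcript clusters, and 30604 of these had 1 gene symbol, 2146 several and 33206 none in the platform's annotation. Symbols of 827 were updated through gene IDs. For genes with several clusters, 355 in all, the one with the highest mean was used, which left 30142 genes, of which 22063 exceeded the array's median in at least 2 arrays and were tested. limma 3.58.1 in R 4.3.3 fitted a mean for each of 14 groups to all 29 arrays (15 residual degrees of freedom). Contrasts of these means and differences between contrasts were tested 2-sided with Benjamini-Hochberg adjustment. Simulated data of the mDPC contrast held 50 changed genes of each size among 22063, with independent noise. There limma recovered 38% of changes of 0.5, 86% of 1, 96% of 1.5 and 98% of 2 log2 units, with 8 false calls. The real contrast gave 3051 calls, so these rates need not carry over to it. Alternatives left out the filter or set it at percentile 75, normalized by quantiles, used a robust prior with a trend, fitted the compared groups alone, took clusters in place of genes, or left out each array in turn.

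Named were Esr1, Esr2, the marker genes, up to 6 members a list and 6 genes a direction for each difference test. The 15 largest rises and 15 largest falls were taken among genes that passed without overlap between groups, above the negative control percentile. Predicted, small RNA and chemoreceptor genes were left out of the largest changes. The members, lists and rules were chosen with earlier results of these data known. Promoters and gene order are those of RefSeq, assembly GRCm38.p6, and coordinates refer to it.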

Additional observations from a re-analysis of the deposited data

Results flagged for a closer look

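These genes had the largest tested differences between the genotype effect in mDPC and that at another stage (limma, adjusted p under 0.05). Each value is the BERKO minus WT change in mDPC minus the same change at the other stage, so that a negative value can stand for a fall in mDPC or a rise at the other stage.

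Against NPC, the differences upwards were 4.22 ± 0.32 (SE) for Dcn, 4.19 ± 0.21 for Gabrb1, 3.63 ± 0.25 for Abcd2, 3.39 ± 0.26 for Pdk4, 3.37 ± 0.24 for Lbp and 3.35 ± 0.20 for Postn. The genes Gabrb1, Abcd2 and Pdk4 rose in mDPC itself. The values of Dcn, which encodes the matrix proteoglycan decorin, and of Postn, which encodes periostin, came instead from falls in NPC by 4.87 and 3.36. In mDPC both were near background, with changes of -0.65 (adjusted p = 0.0619) and -0.00 (adjusted p = 0.999), and Lbp likewise changed by -0.11 (adjusted p = 0.777). The differences downwards were -5.29 ± 0.20 for A2m, -4.77 ± 0.25 for Speer8-ps1, -4.53 ± 0.35 for Pi15, -3.82 ± 0.28 for Mki67, -3.76 ± 0.45 for Vat1l and -3.15 ± 0.16 for Kif11, and all 6 genes fell in mDPC.

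Against MN, the differences upwards were 5.0 ± 0.30 for Dcn, 4.14 ± 0.44 for Elobl, 3.75 ± 0.18 for Aldh1l2, 3.64 ± 0.15 for Tmem255a, 3.53 ± 0.32 for Ecrg4 and 3.52 ± 0.50 for Syt4. Of these, Aldh1l2, Tmem255a and Ecrg4 rose in mDPC, the last 2 at levels under the negative control percentile. The differences downwards were -5.27 ± 0.17 for Susd2, -5.17 ± 0.29 for Padi2, -4.18 ± 0.21 for Spata18, -4.05 ± 0.21 for Cnmd, -3.94 ± 0.43 for Papss2 and -3.71 ± 0.27 for Mki67. Only Padi2, a peptidylarginine deiminase gene, and Mki67 fell in mDPC. Padi2 read 6.39 and 6.44 in BERKO and 8.68 and 8.33 in WT mDPC, and rose by 3.08 in MN. Susd2, Spata18 and Cnmd were near background in mDPC and higher in BERKO MN.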

How the results depend on the processing

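The count of 3051 genes between BERKO and WT mDPC stayed between 2221 and 3154 under the 6 alternatives to filter, scaling, prior, samples and feature, and between 1852 and 2447 when 1 array was left out. It was 1852 without BERKO array 1. Of 179 named genes that passed in mDPC, 128 kept their call under all 10 alternatives, 51 lost it in at least 1 and none turned round. Those lost were mostly small changes, among them Sox2, Vim, Aldh1a1, Vegfa, Uqcrc1, Uqcrh and Pdia6. Dcn, which did not pass, passed under 3.

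With only the compared groups in the fit, which leaves fewer arrays to estimate the spread, the genotype comparison gave 1729 genes in LY3201 mDPC and 2297 in MN, and the difference between mDPC and MN gave 1617. The difference between vehicle and LY3201 gave 3 genes after quantile normalization. With 1 array left out the counts ranged from 2223 to 2645 in LY3201 mDPC, from 1898 to 2657 in NPC, from 3154 to 4536 in MN, from 1204 to 1543 for mDPC minus NPC, from 2072 to 2605 for mDPC minus MN and from 0 to 8 for vehicle minus LY3201. Moves of over 1.5 times came without WT array 1 of LY3201 mDPC (2223), without BERKO array 2 (2019) or WT array 1 (1898) of NPC, the last also for mDPC minus NPC (1204), and without WT array 1 of vehicle mDPC for vehicle minus LY3201 (8). Quantile normalization moved the share of higher calls to 43.8% from 67.6% in NPC and to 53.8% from 64.8% in MN. The median of the Atf4 list was 0.41, that of the oligodendrocyte list 0.71 and that of the Hox list -1.29 after quantile normalization. The causes of these moves were not tested. No paired analysis was possible because the labels give no replicate numbers that groups share.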

Other observations

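Around Esr2, within 5 megabases either side on chromosome 12, 16 of 86 tested genes differed between BERKO and WT mDPC (18.6%), beside 13.8% of all genes tested. By class, 17.6% of 14533 protein-coding genes passed, against 9.07% of 3286 pseudogenes, 5.8% of 1553 lncRNA genes and 4.79% of 397 miRNA genes. Signal levels of the classes were not compared, so their part in these shares was not tested.

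Neighbouring protein-coding genes changed together by at least 2-fold at several further places, which were chosen after the values were seen. The caveola genes Cav2 and Cav1 rose by 3.47 and 3.32 side by side. The cytochrome P450 genes Cyp2j6 and Cyp2j9, related copies whose probes may not be fully separate, rose by 4.61 and 2.40. The immunoglobulin-family adhesion genes Opcml and Ntm rose by 1.32 and 2.74. The caspase gene Casp12 and Pdgfd rose by 2.65 and 3.50.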
